A study of Mus musculus with 8 samples.

Results

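The genes described here carry the signal of Toll-like and interleukin-1 family receptors from the adaptor MyD88 through the IRAK kinases to the ubiquitin ligase TRAF6, together with their closest regulators. They were chosen by name, with no threshold on a measured value, and are Myd88, Tirap, Irak4, Irak1, Irak2, Irak3, Tollip, Traf6 and Irf5. All 9 were among the 24421 genes of the deposited table, and all 9 were among the 12254 genes tested, namely all genes counted in 2 or more of the 8 libraries. Neutrophils were purified magnetically from the bone marrow of female C57BL/6 mice aged 8 weeks. The mice were wild-type (WT) or Padi4 KO, the latter lacking exon 1 of Padi4, which encodes the citrullinating enzyme PAD4. They were kept in culture unstimulated or with R848, an agonist of the endosomal receptor TLR7, at 1 µg/ml for 6 h. This gave 4 groups (WT unstimulated, WT with R848, Padi4 KO unstimulated and Padi4 KO with R848) of 2 RNA sequencing libraries each. The titles give 0 h for the unstimulated libraries, and the methods describe unstimulated cells beside those stimulated for 6 h, so any difference in time in culture cannot be told apart from R848. The methods state that samples were run in duplicate, without saying whether the 2 libraries of a group came from separate mice, and the chi-square between the libraries of a group was 1.05 to 1.67 times its degrees of freedom, where counting noise alone gives 1. So every p-value measures the spread between these libraries only, estimated largely over all genes together, and that spread may be technical.

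When a Toll-like receptor of this class binds its ligand, its cytoplasmic domain recruits MyD88, which stacks with IRAK4 and then with IRAK1 or IRAK2 into a complex called the Myddosome. The activated IRAKs engage TRAF6, whose ubiquitin chains recruit the TAK1 and IKK kinases that lead to NF-kappaB and MAP kinase activity, and MyD88 with TRAF6 also activates the transcription factor IRF5. The chain restrains itself through IRAK-M (the product of Irak3), which has little or no kinase activity, and through TOLLIP, and neutrophils use it to answer microbial products with cytokine release.

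The libraries were shallow, with 562446 to 1177972 counts on genes, so that 3 counts, taken here as the limit of detection, equalled 2.55 to 5.33 CPM (counts scaled by the library total). The 9 genes lay well above it, with between 25 and 1496 counts in every library. CPM values were scaled by TMM factors, which ran from 0.804 to 1.25 and were lowest in the 2 WT libraries with R848. The standard error (SE) given with a log2 value is that value divided by the square root of its edgeR F statistic. It can be too small for large changes, such as those of Irak2 and Irak3 after R848. Padi4 itself had 590 and 527 counts in WT unstimulated libraries and 166 and 234 with R848, against 40 and 54 and then 34 and 21 in Padi4 KO, a log2 difference of -4.45 (SE 0.13) unstimulated and -3.92 (SE 0.17) with R848. The 11 neutrophil markers analysed here were above 0 in all 8 libraries, and their sum was 151535 to 157754 CPM of the library total in WT unstimulated, 123780 to 125320 in Padi4 KO unstimulated, 127335 to 141468 in WT with R848 and 102636 to 103287 in Padi4 KO with R848. Padi4 KO against WT, 10 of the 11 were lower unstimulated (median log2 difference -0.56) and 9 of the 11 with R848 (median -0.62). Monocyte and macrophage markers summed to 917 to 1117 in WT unstimulated, 2205 to 2211 in Padi4 KO unstimulated, 2936 to 3022 in WT with R848 and 3170 to 3234 in Padi4 KO with R848, with 9 or 10 of 10 above 0. The rise of this sum with R848 came mostly from Adgre1 (39.1 to 2443 CPM in WT and 36.8 to 1798 in Padi4 KO, group means) and Csf1r (144 to 942 and 180 to 1092). Of the 10 markers, 3 were higher (these and Cx3cr1) and 4 lower after R848 in WT, with 6 of 10 log2 changes below 0 (median -1.37), and in Padi4 KO 3 were higher and 5 lower (median -1.78). Padi4 KO against WT, 7 of the 10 were higher and 0 lower unstimulated, and 5 were higher and 1 lower with R848. Plasmacytoid dendritic cell markers, from a cell type that also uses TLR7 and IRF5, summed to 13.5 to 46.1, with 1 to 4 of 7 above 0. Erythroid markers also moved with genotype, at 43.7 to 55.1 in WT unstimulated, 10.5 to 14.8 in WT with R848, 493 to 503 in Padi4 KO unstimulated and 834 to 850 in Padi4 KO with R848. The haemoglobin genes in the list had 0 counts throughout. Stromal and endothelial markers summed to 229 to 289 in WT unstimulated, 537 to 681 in Padi4 KO unstimulated, 133 to 138 in WT with R848 and 89.9 to 90.8 in Padi4 KO with R848. T and NK cell markers summed to 32.0 to 39.0, 18.1 to 20.9, 9.83 to 11.96 and 4.24 to 9.70 in the same order. Of the 6 stromal and endothelial markers tested, 2 were higher and 1 lower in Padi4 KO unstimulated. Most of that sum came from Col1a1 (103 CPM in WT and 212 in Padi4 KO, group means) and Col1a2 (91.9 and 250). Vcam1 went the other way (43.2 and 13.6). In such bulk samples, fewer cells of a type and less RNA per cell cannot be told apart, and the part that these markers play in the results was not tested.

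The promoters of the 2 genes that rose most, Irak2 and Irak3, and of the shared adaptor, Myd88, are shown so that the sequence before an annotated start can be read beside the values. Which start these cells use was not measured. Each is the 250 bases before a RefSeq transcription start (GRCm38.p6), read 5′ to 3′ on the strand of the gene. RefSeq gives Irak3 a second start, whose window is not printed, and the Myd88 start lies inside the outer bounds of the gene in GENCODE. Capitals mark the only match, over the 12 windows that RefSeq gives for the 9 genes, to any of 5 motifs searched on both strands.
Irak2, chr6:113638217-113638466, plus strand: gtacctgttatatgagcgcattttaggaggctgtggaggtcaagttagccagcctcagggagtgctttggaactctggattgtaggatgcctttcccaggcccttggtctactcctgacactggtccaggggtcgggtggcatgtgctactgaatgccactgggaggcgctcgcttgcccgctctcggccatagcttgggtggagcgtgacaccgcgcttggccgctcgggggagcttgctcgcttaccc
Irak3, chr10:120202131-120202380, minus strand: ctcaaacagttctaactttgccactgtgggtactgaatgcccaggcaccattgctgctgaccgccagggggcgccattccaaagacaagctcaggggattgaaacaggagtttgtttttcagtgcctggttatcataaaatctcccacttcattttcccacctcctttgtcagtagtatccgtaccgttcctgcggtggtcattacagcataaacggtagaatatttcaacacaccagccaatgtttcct
Myd88, chr9:119340019-119340268, minus strand: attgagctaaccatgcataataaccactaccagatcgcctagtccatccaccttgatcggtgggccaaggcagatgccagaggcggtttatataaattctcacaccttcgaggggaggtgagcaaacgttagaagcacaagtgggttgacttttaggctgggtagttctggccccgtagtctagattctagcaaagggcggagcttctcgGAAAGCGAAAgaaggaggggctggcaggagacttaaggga
The capitals in the Myd88 window match an interferon response element, written as GAAA and GAAA with any 2 bases between, from 40 to 31 bases before the start, a match held by 2.98% of 32851 mouse promoter windows of this length. No window of the 9 genes held the kappaB letters GGGA and TTCC with any 2 bases between (1.21% of all windows), the PU.1 letters GAGGAAGT (2.44%), the AP-1 letters TGANTCA (6.75%) or the C/EBP letters TTGNNCAA (5.65%). The Irak2 window had 60.0% G and C bases, the printed window of Irak3 47.6%, the other Irak3 window 66.4% and that of Myd88 51.2%.

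R848 raised most of these genes in WT neutrophils. Of the 9, 6 were higher at a false discovery rate (FDR) below 0.1 by the quasi-likelihood test of edgeR, with p-values adjusted over all genes by Benjamini-Hochberg, and 0 were lower. Over all genes tested, 13.5% were higher and 16.0% lower, and among the 6912 genes with a mean count of at least 10, which is the range of the 9, 1526 were higher and 1605 lower. The median log2 fold change was 0.73 for the 9 genes, -0.17 for all genes tested and -0.07 for those 6912 genes. Irak2, Irak3 and Irf5 also passed 2-fold, as 7.17% of all genes did. In Padi4 KO neutrophils 8 of the 9 were higher and 0 lower, against 19.2% and 15.9% of all genes. The same 3 genes passed 2-fold, against 8.07%. Among the 6912 genes with a mean count of at least 10, 2107 were higher and 1410 lower there. The median in Padi4 KO was 0.70 for the 9 genes, -0.03 for all genes and 0.08 for these 6912. Both counts of 0 for lower genes were also 0 at an unadjusted p under 0.05 and with DESeq2.

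**Figure D1:**
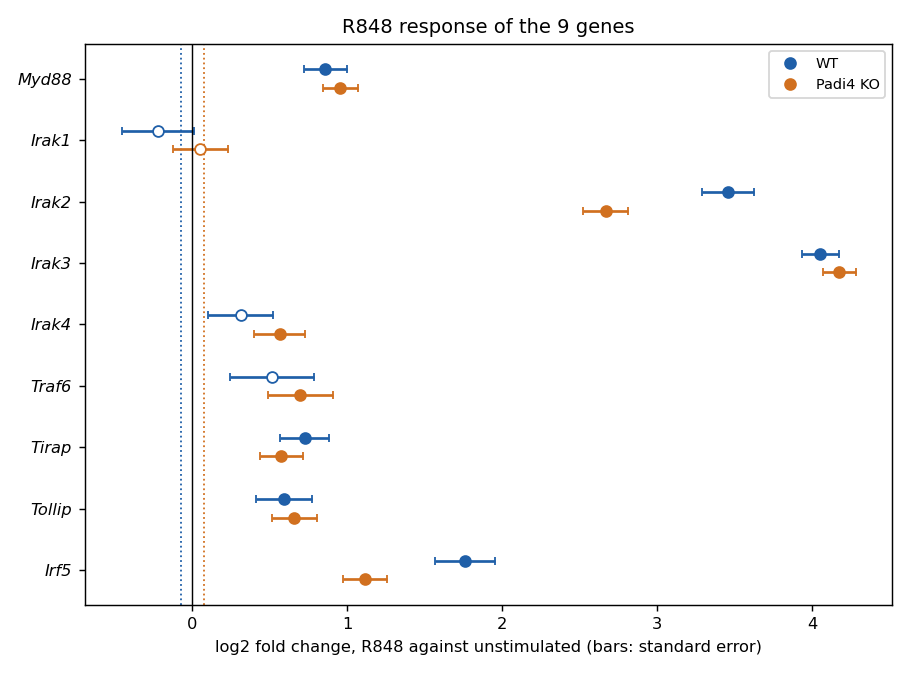
Log2 fold change with R848 against unstimulated (horizontal axis) of each of the 9 genes (rows) in WT (blue) and Padi4 KO (orange), with standard errors as bars, filled points where the FDR was below 0.1, open points where it was not, and dotted lines at the median of all genes with a mean count of at least 10. Irak3 and Irak2 lie far to the right of the other genes in both genotypes, and Irak2 and Irf5 are the genes whose Padi4 KO point lies left of the WT point by more than the bars.

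Among the adaptors, Myd88, the adaptor used by Toll-like receptors other than TLR3, stood at 176 and 157 CPM in the 2 WT unstimulated libraries and at 302 and 305 with R848. In Padi4 KO it stood at 147 in both unstimulated libraries and at 296 and 275 with R848. The groups did not overlap in either genotype, and the log2 fold changes were 0.86 (SE 0.14, adjusted p = 9.71e-09 by edgeR) in WT and 0.95 (SE 0.11, adjusted p = 4.89e-16) in Padi4 KO. Tirap, which encodes the adaptor that brings MyD88 to receptors at the cell membrane, rose from 133 and 124 to 214 and 212 CPM in WT and from 93.8 and 99.4 to 137 and 153 in Padi4 KO. Every Padi4 KO library with R848 stayed below both WT libraries with R848, and the responses were 0.73 (SE 0.16, adjusted p = 4.68e-05 by edgeR) and 0.57 (SE 0.14, adjusted p = 0.000233). The call for Tirap in Padi4 KO was lost without the second Padi4 KO library with R848 (0.37, adjusted p = 0.115 by edgeR) and with library size alone as the scale (0.20, adjusted p = 0.284).

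Irak2, a kinase that sustains signalling to TRAF6 at later times, changed most clearly among the genes whose products signal forward. It had 38.7 and 51.8 CPM (25 and 30 counts) in WT unstimulated libraries and 540 and 453 CPM (265 and 256 counts) with R848. In Padi4 KO it had 48.6 and 37.7 CPM (43 and 52 counts) unstimulated and 259 and 277 CPM (292 and 301 counts) with R848. The unstimulated groups overlapped, whereas with R848 both Padi4 KO libraries lay far below both WT libraries. It rose 10.99-fold in WT (log2 fold change 3.46, SE 0.17, adjusted p = 9.57e-93 by edgeR) and 6.35-fold in Padi4 KO (2.67, SE 0.15, adjusted p = 6.78e-72).

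The kinases that start the chain gave small differences. Irak4, the kinase that MyD88 recruits first, had 83.5 and 77.7 CPM in WT unstimulated libraries and 95.8 and 104 with R848, a log2 difference of 0.31 (SE 0.21, adjusted p = 0.308 by edgeR) whose 95% interval was -0.10 to 0.72. Over the 16 alternatives this WT difference ran from 0.010 to 0.51, and from 0.27 to 0.51 when 1 library was left out. In Padi4 KO Irak4 went from 64.4 and 62.4 to 104 and 82.7 CPM. This rise of 0.56 (SE 0.17) passed with an adjusted p of 0.00351 by edgeR. The call for Irak4 was lost without the first Padi4 KO library with R848 (0.24, adjusted p = 0.461), with DESeq2 (0.48, adjusted p = 0.248), with library size alone (0.19, adjusted p = 0.415) and with thinned counts (0.45, adjusted p = 0.143). Irak1, the kinase that IRAK4 activates in turn, passed the test in neither genotype. Its levels were 80.4 and 74.2 CPM in WT unstimulated, 63.2 and 69.1 in WT with R848, 62.2 and 66.0 in Padi4 KO unstimulated and 63.1 and 70.8 in Padi4 KO with R848. Its log2 differences after R848 were -0.22 (SE 0.23, adjusted p = 0.549 by edgeR) and 0.05 (SE 0.18, adjusted p = 0.869), with 95% intervals of -0.68 to 0.23 and -0.29 to 0.40. With library size alone the WT difference of Irak1 was -0.53 (adjusted p = 0.0724 by edgeR), and when 1 library was left out it ran from -0.28 to -0.029. With thinned counts the Padi4 KO response of Irak1 was 0.50 (adjusted p = 0.122) and its difference of response 0.70 (adjusted p = 0.386), against 0.28 with all counts.

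Of the genes that restrain the chain, Irak3 showed the largest response of the 9 in both genotypes. It had 89.7 and 91.5 CPM (58 and 53 counts) in WT unstimulated libraries and 1551 and 1455 CPM (761 and 822 counts) with R848, a 16.6-fold rise (log2 4.05, SE 0.12, adjusted p = 9.86e-248 by edgeR). In Padi4 KO it had 67.8 and 76.2 CPM (60 and 105 counts) and 1329 and 1303 CPM (1496 and 1418 counts), an 18.0-fold rise (log2 4.17, SE 0.11, with an adjusted p too small for the software to hold). Tollip, which encodes an adaptor that binds IRAK1 and dampens its activation, had 113 and 89.8 CPM in WT unstimulated libraries and 171 and 138 with R848, and 89.3 and 82.0 and then 133 and 135 in Padi4 KO. These were rises of 0.59 (SE 0.18, adjusted p = 0.00597 by edgeR) and 0.66 (SE 0.15, adjusted p = 4.34e-05). The WT call for Tollip was lost without the second WT unstimulated library (0.44, adjusted p = 0.135) and, with library size alone, in WT (0.29, adjusted p = 0.248) and in Padi4 KO (0.28, adjusted p = 0.125).

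At the end of the chain, Traf6 was the gene with the lowest level per length. It had 40.2 and 44.9 CPM in WT unstimulated libraries, 69.3 and 53.1 with R848, 35.0 and 34.1 in Padi4 KO unstimulated and 56.0 and 56.1 with R848. The groups did not overlap in either genotype, yet with 26 to 63 counts a library the WT difference of 0.51 (SE 0.27) had an adjusted p of 0.173 by edgeR, while the rise of 0.70 (SE 0.21) in Padi4 KO had 0.00476. In WT it passed in a model of the WT libraries alone (0.64, adjusted p = 0.0737) and when the second WT library with R848 (0.81, 0.0635) or either Padi4 KO library with R848 (0.61, with 0.0944 and 0.0948) was left out. In Padi4 KO the call for Traf6 was lost without the first library with R848 (0.56, adjusted p = 0.115), with DESeq2 (0.61, adjusted p = 0.249) and with library size alone (0.32, adjusted p = 0.246).

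Irf5, which encodes the transcription factor that MyD88 and TRAF6 activate to induce inflammatory cytokines, rose from 60.3 and 55.3 to 196 and 197 CPM in WT. In Padi4 KO it started higher, at 79.1 and 73.3 CPM, and ended lower, at 159 and 169. Scaled by the library total alone, the levels with R848 overlapped, at 157 and 166 in WT and 152 and 162 in Padi4 KO. The groups of each genotype did not overlap, and the rises were 3.38-fold (log2 1.76, SE 0.19, adjusted p = 2.76e-18 by edgeR) and 2.17-fold (1.11, SE 0.14, adjusted p = 1.10e-13).

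**Figure D2:**
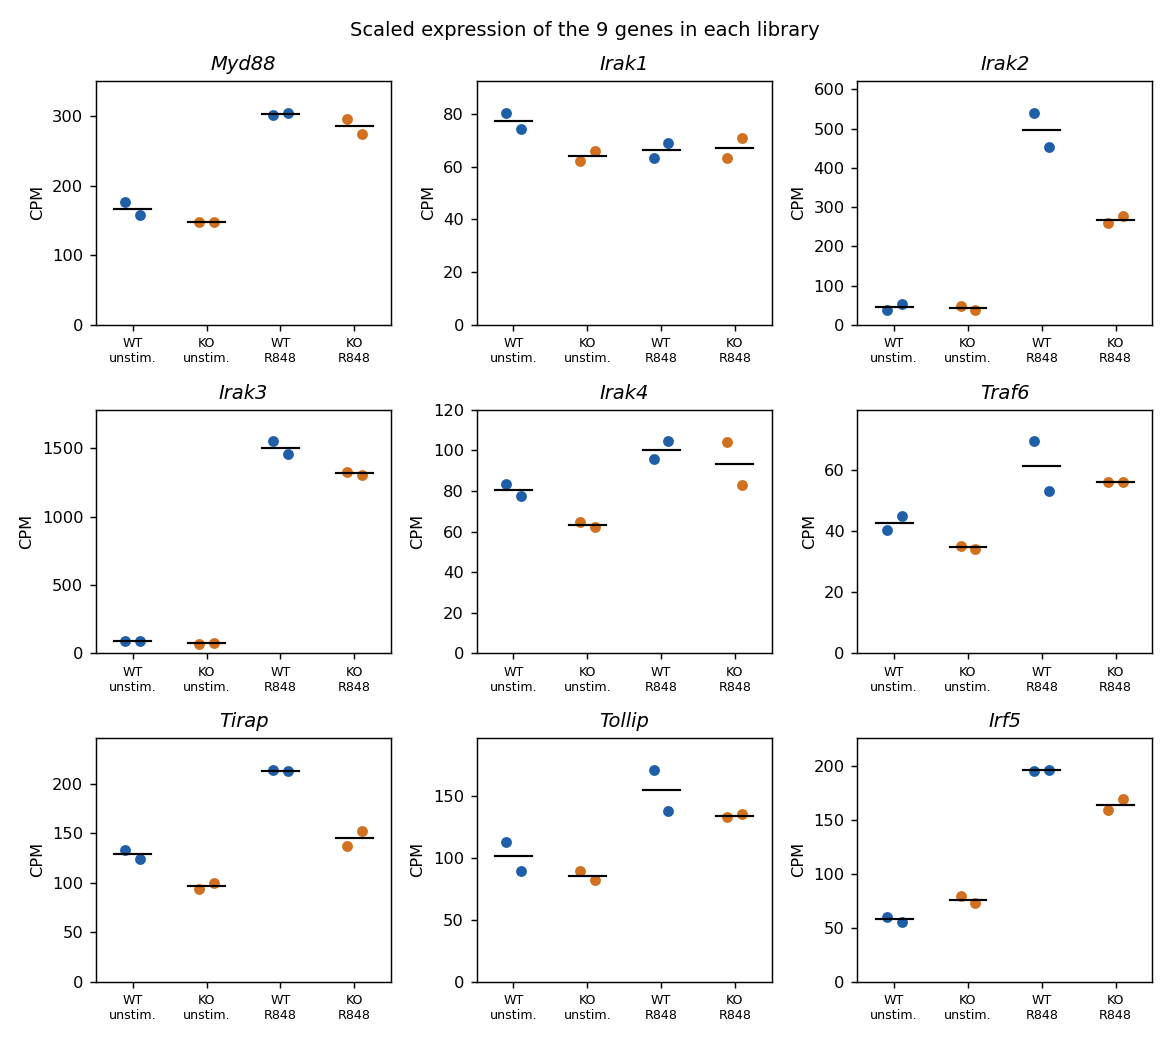
CPM (linear axis from 0, scaled by TMM factors) of the 9 genes, 1 panel a gene, with each library as a point and the mean of the 2 libraries of a group as a horizontal line. With R848, Irak2 sits at 540 and 453 CPM in WT and at 259 and 277 in Padi4 KO, while Irak3 is at 1303 CPM or more in all 4 of these libraries.

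Per length, the order of the genes changed with R848. Divided by the exonic length of each gene, Myd88 had the highest level in unstimulated neutrophils, 85.0 ± 6.90 CPM per kb in WT and 75.1 in Padi4 KO (mean, ± SD where given, n = 2). In WT it was followed by Irak3 (28.1) and Tirap (27.2), whose libraries overlapped, then by Tollip (23.4) and Irf5 (21.8), which also overlapped, and then by Irak1 (19.6), Irak4 (16.9), Irak2 (14.2) and Traf6 (6.90). In WT with R848 Irak3 led at 467 ± 21.0 CPM per kb, ahead of Irak2 at 155 ± 19.2 and Myd88 at 155 ± 1.04, which overlapped. In Padi4 KO with R848 Irak3 led at 409 ± 5.68, and Myd88 at 146 ± 7.59 lay above Irak2 at 83.9 ± 3.81 with no overlap. Irf5 came next in both genotypes with R848, at 74.1 in WT and 62.0 in Padi4 KO, and in Padi4 KO unstimulated it followed Myd88 at 28.8.

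Within the 4 IRAK genes, the same shift can be read without any scaling between libraries. Per length, Irak3 made up 35.6 to 35.8% of the IRAK signal in WT unstimulated libraries, 32.1 to 36.2% in Padi4 KO unstimulated, 70.1 to 71.4% in WT with R848 and 76.9 to 77.6% in Padi4 KO with R848. Irak2 made up 22.4 to 24.6% in WT with R848 and 15.3 to 16.4% in Padi4 KO with R848, while its unstimulated shares of 15.5 to 20.3% and 18.1 to 23.2% overlapped. With R848 the libraries of WT held 34.8 and 31.1 Irak2 counts per 100 Irak3 counts and those of Padi4 KO held 19.5 and 21.2. After R848 this ratio was lower in both Padi4 KO libraries than in both WT libraries, and, being a ratio within a library, it does not depend on the normalization factors.

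The question whether the responses differed between the genotypes was tested directly, as the R848 response in Padi4 KO minus that in WT. Of the 9 genes, 1 had a lower response in Padi4 KO and 0 a higher one, against 1.26% and 3.45% of all genes. The 0 was also 0 at an unadjusted p under 0.05 and with DESeq2. Among the 6912 genes with a mean count of at least 10, 149 had a lower response and 406 a higher one. The member with the lower response was Irak2, with a difference of -0.79 (SE 0.27, 95% interval -1.31 to -0.27, adjusted p = 0.0731 by edgeR), or 1.73-fold less. The median difference was 0.10 for the 9 genes, 0.19 for all genes tested and 0.18 for genes with a mean count of at least 10, so that relative to these last the difference of Irak2 was -0.97. The call for Irak2 was lost without the first WT unstimulated library (-0.59, adjusted p = 0.481) and without the first Padi4 KO unstimulated library (-0.65, adjusted p = 0.341), the libraries in which Irak2 rested on 25 and 43 counts. It was also lost with DESeq2 (-0.96, adjusted p = 0.102), with thinned counts (-0.83, adjusted p = 0.142) and at an FDR of 0.05. The difference was below 0 in all 15 alternatives, from -1.15 to -0.59.

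Irf5 had the next largest difference, -0.64 (SE 0.25, 95% interval -1.13 to -0.15), which did not pass (adjusted p = 0.160 by edgeR). It passed in 5 of 15 alternatives, namely relative log expression factors (-0.80, adjusted p = 0.0583) and without the first or second WT library with R848 (-0.92 and -0.87, 0.0308 and 0.0451) or the first or second Padi4 KO library with R848 (-0.84 and -0.91, 0.0814 and 0.0441). For the other 7 genes the differences lay between -0.15 and 0.28, with adjusted p-values of 0.781 or more by edgeR, and none was called in any of the 15 alternatives. Tirap, at -0.15, was below 0 in all 15 and ran from -0.46 to -0.11 when 1 library was left out. Their 95% intervals still allow sizeable differences, for example -0.26 to 0.45 for Myd88, -0.25 to 0.50 for Irak3 and -0.50 to 0.86 for Traf6.

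**Figure D3:**
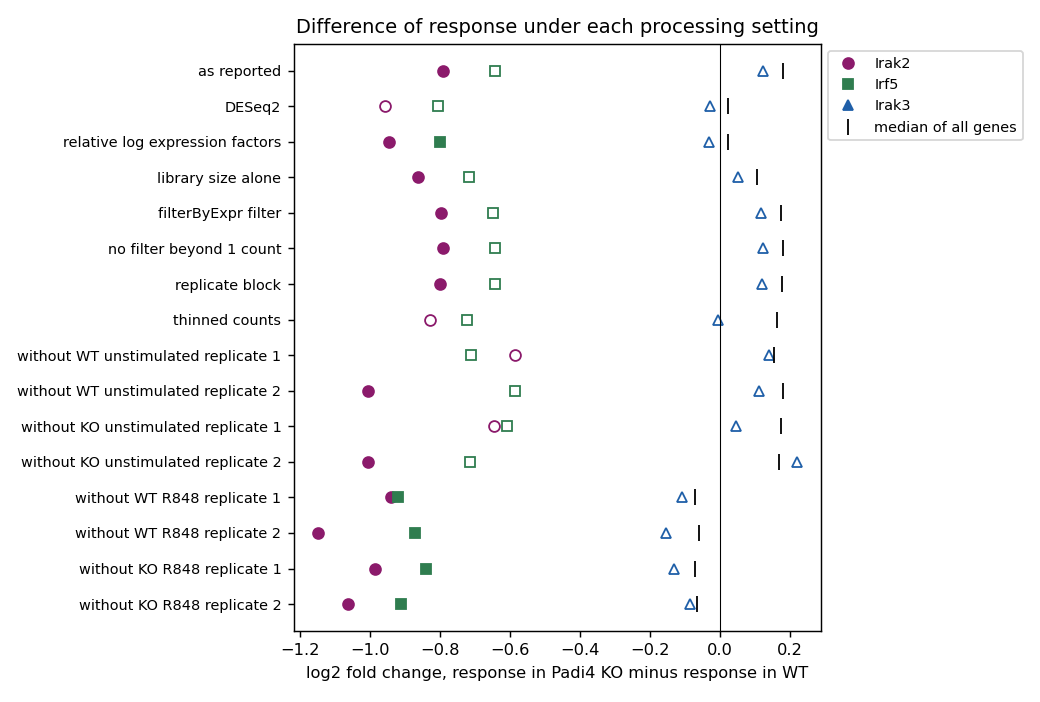
Difference of the R848 response (log2, Padi4 KO minus WT, horizontal axis) of Irak2 (circles), Irf5 (squares) and Irak3 (triangles) under each processing choice (rows), filled where the FDR was below 0.1 and open where it was not, with ticks at the median of all genes with a mean count of at least 10. Irak2 lies between -1.15 and -0.59 and Irf5 between -0.92 and -0.58, left of the median in every row, while Irak3 lies on both sides of 0.

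Comparing the genotypes without R848, 1 of the 9 genes was lower in Padi4 KO and 0 were higher, against 14.4% and 9.55% of all genes. The 0 was also 0 at an unadjusted p under 0.05 and with DESeq2. Among the 6912 genes with a mean count of at least 10, 1675 were lower and 859 higher. The lower gene was Tirap, at 93.8 and 99.4 CPM against 133 and 124 in WT (-0.41, SE 0.16, adjusted p = 0.0590 by edgeR), and it was called in 4 of 16 alternatives, in none of the 8 that left out a library (-0.45 to -0.26). The median was -0.26 for the 9 genes, -0.03 for all genes and -0.16 for genes with a mean count of at least 10. Irf5 alone of the 9 lay higher in Padi4 KO, by 0.39 (SE 0.21, adjusted p = 0.202 by edgeR), which relative to that last median was 0.55. Myd88, Irak1, Irak3, Irak4, Traf6 and Tollip lay between -0.35 and -0.18 and were called in none of the 16 alternatives (-0.53 to 0.10). With library size alone Myd88, Irak1, Irak2 and Tollip lay above 0 too. The monocyte and macrophage markers, from cells that also express Irf5, summed to 917 to 1117 in these WT libraries and to 2205 to 2211 in these Padi4 KO libraries. Their part in the Irf5 value was not tested. Irf5 passed in 6 of 16 alternatives, which were library size alone (0.67, adjusted p = 0.0108), a model of the unstimulated libraries alone (0.53, adjusted p = 0.0435) and each of the 4 that left out a library with R848 (0.51 to 0.53). Irak2 did not differ beyond its spread before stimulation (-0.09, SE 0.25, 95% interval -0.58 to 0.39, adjusted p = 0.866 by edgeR).

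With R848, 3 of the 9 genes were lower in Padi4 KO and 0 were higher, against 7.81% and 9.46% of all genes. The 0 was also 0 at an unadjusted p under 0.05 and with DESeq2. Among the 6912 genes with a mean count of at least 10, 928 were lower and 891 higher. The median was -0.19 for the 9 genes, 0.08 for all genes tested and -0.0019 for these 6912. Irak2 was lower by the most, 268 ± 12.2 against 497 ± 61.4 CPM (mean ± SD, n = 2 each), which is 1.85-fold less (log2 -0.88, SE 0.11, adjusted p = 6.14e-15 by edgeR). This was called in all 16 alternatives. Tirap was lower by -0.56 on the log2 scale (SE 0.14, adjusted p = 0.00104 by edgeR), also in all 16. The neutrophil markers had median differences of -0.62 here and -0.56 unstimulated, and their part in the Tirap values was not tested. Irak3 was lower by -0.19 (SE 0.08, adjusted p = 0.0793 by edgeR), at 1316 ± 18.3 against 1503 ± 67.6 CPM. The call for Irak3 held in 12 of 16 alternatives, being lost in a model of the libraries with R848 alone (-0.18, adjusted p = 0.148) and without either Padi4 KO unstimulated library (-0.19, adjusted p = 0.118 each), and with library size alone its sign turned (0.03). Without the first or second WT library or the first Padi4 KO library with R848 it was -0.29, -0.32 and -0.31, and with DESeq2 and relative log expression factors -0.29. Irf5 was at -0.26 (SE 0.14, adjusted p = 0.252 by edgeR), and passed with relative log expression factors (-0.36, adjusted p = 0.0633). Over the 16 alternatives Irf5 ran from -0.40 to -0.043, and from -0.40 to -0.25 when 1 library was left out. Myd88, Irak1, Irak4, Traf6 and Tollip lay between -0.20 and 0.01, with adjusted p-values of 0.500 or more, and were called in none of the 16 alternatives. Leaving out 1 library moved Tollip from -0.20 to as low as -0.43 (adjusted p = 0.138, without the second WT library with R848), Traf6 from -0.11 to -0.39 (without the same library), and Irak4 from -0.10 to -0.39 and Myd88 from -0.087 to -0.25 (both without the first Padi4 KO library with R848). The comparisons between genotypes and the difference of response share libraries, so their values are not independent of each other.

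**Figure D4:**
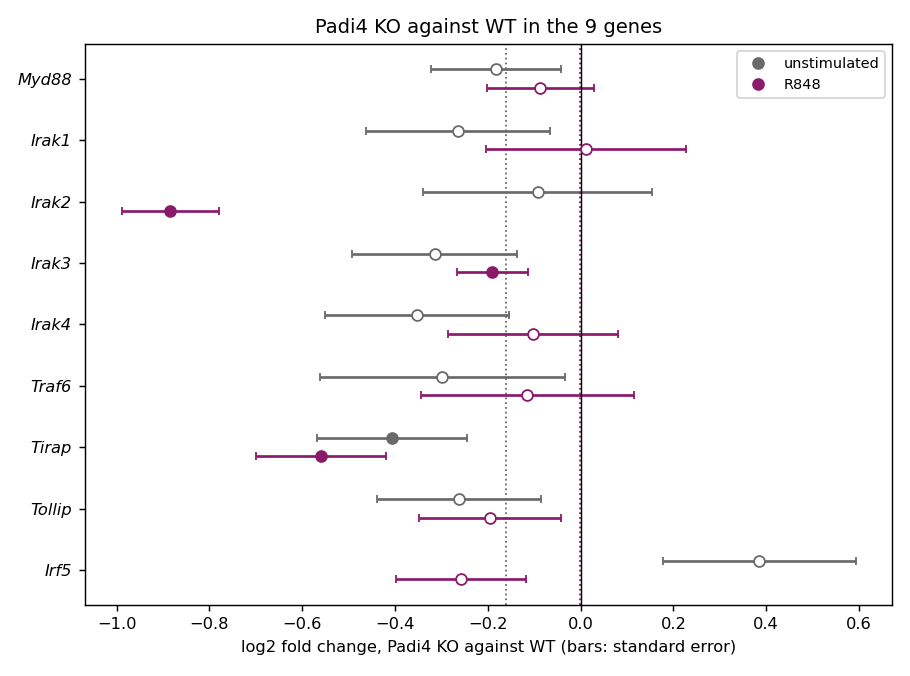
Log2 difference of Padi4 KO against WT (horizontal axis) of each of the 9 genes (rows), unstimulated (grey) and with R848 (purple), with standard errors as bars, filled points where the FDR was below 0.1, open points where it was not, and dotted lines at the median of all genes with a mean count of at least 10. Irak2 is at -0.09 unstimulated and -0.88 with R848, and Irf5 at 0.39 and -0.26.

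The rest of the pathway was read from a list of 55 genes, of which 53 were tested. After R848, 23 were higher and 6 lower in WT (median 0.41), beside 13.5% higher and 16.0% lower and a median of -0.17 over all genes. There were 27 higher and 6 lower in Padi4 KO (median 0.52), beside 19.2% higher and 15.9% lower and a median of -0.03. The counts of the groups within the list that follow stand against the same shares. Of the 12 restrainers of the pathway, 8 were higher and 1 lower in WT, and 10 were higher and 1 lower in Padi4 KO. Between the genotypes, 4 of the 53 were higher and 13 lower in Padi4 KO unstimulated, and 1 was higher and 11 lower with R848. Over all genes 9.55% were higher and 14.4% lower unstimulated, and 9.46% higher and 7.81% lower with R848. Among the 6912 genes with a mean count of at least 10, 859 were higher and 1675 lower unstimulated, and 891 higher and 928 lower with R848, so the unstimulated count is near the share at that level. Among them Tnip1, whose product helps A20 switch off NF-kappaB signalling, rose by 4.09 (SE 0.13) and 4.54 (SE 0.12) on the log2 scale. Il1rn, which encodes the interleukin-1 receptor antagonist, rose by 2.85 and 3.12. The restrainer that fell was Il1r2, the decoy receptor for interleukin-1, with log2 changes of -1.97 (SE 0.15) and -2.57 (SE 0.17). It was also lower in Padi4 KO than in WT both unstimulated (-1.04) and with R848 (-1.64). Of the TAK1 and IKK kinase genes, 3 of 8 were higher in WT and 5 of 8 in Padi4 KO, and 0 were lower. The adaptor gene Pik3ap1, which encodes BCAP, a link to PI3-kinase, rose by 3.11 in WT and by 3.37 (SE 0.11) in Padi4 KO.

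Among the 17 receptor and escort genes, R848 raised 6 and lowered 4 in each genotype. Tlr7, the receptor of R848, had 72.7 and 65.6 CPM in WT unstimulated libraries and 27.1 and 23.2 in Padi4 KO, a difference of -1.48 (SE 0.25, adjusted p = 1.30e-07 by edgeR) that was called in all 16 alternatives. With R848 it had 40.8 and 30.1 CPM in WT and 26.7 and 17.5 in Padi4 KO, a difference of -0.66 (adjusted p = 0.186 by edgeR). This one was called in 2 of 16 alternatives (-1.11 to -0.36), with relative log expression factors and without the first Padi4 KO library with R848. In the list as a whole the R848 response was lower in Padi4 KO for Tlr2 and Tlr4 and higher for Ikbkg, the scaffold subunit of the IKK complex. These 2 lower and 1 higher of 53 stand beside 1.26% lower and 3.45% higher over all genes. Tlr2, a receptor of bacterial lipopeptides, went from 89.7 to 1077 CPM in WT and from 156 to 498 in Padi4 KO (group means), a difference of -1.90 (SE 0.18, adjusted p = 4.18e-23 by edgeR) called in all 15 alternatives. Ikbkg (0.75, SE 0.24, adjusted p = 0.0483) was called in 5 of 15 alternatives (0.29 to 1.07). The call was lost with DESeq2, relative log expression factors, library size alone and thinned counts, without the first WT or the second Padi4 KO unstimulated library and without any library with R848. Tlr4, the receptor of lipopolysaccharide (-1.15, SE 0.41, adjusted p = 0.0950), was called in 7 of 15 (-1.65 to -0.85). It was lost with DESeq2, with no filter beyond 1 count and with thinned counts, and without either WT unstimulated library, the first Padi4 KO unstimulated library, the first WT or the second Padi4 KO library with R848. Of the receptors that fell, Tlr5, the receptor of flagellin, changed by -2.14 (SE 0.42) in WT and -2.56 in Padi4 KO. Tlr8 went from 38 and 28 counts unstimulated to 2 and 0 with R848 in WT, and from 29 and 54 to 0 and 7 in Padi4 KO. Il18rap, a subunit of the interleukin-18 receptor, was lower in Padi4 KO unstimulated (-0.68, SE 0.10, adjusted p = 2.68e-09 by edgeR) and with R848 (-0.45, adjusted p = 0.000692). The call with R848 held in 15 of 16 alternatives (-0.70 to -0.24), lost with library size alone. Some genes of the list rested on few counts. Tlr9, the receptor of DNA, had 1 count in each WT and 6 and 10 counts in the Padi4 KO unstimulated libraries (log2 difference 2.02, adjusted p = 0.0910 by edgeR), a call lost when any unstimulated library was left out (1.73 to 2.30 over all alternatives). Tlr1, a partner of TLR2, had 5 and 7 counts with R848 in WT, against 29 and 26 in Padi4 KO (1.12, adjusted p = 0.0742 by edgeR), a call lost when any library with R848 was left out and with DESeq2, relative log expression factors and thinned counts (0.85 to 1.33 over all alternatives). Irf8, which encodes a transcription factor of the monocyte and dendritic lineages, had 26 and 11 counts unstimulated in WT, against 49 and 73 in Padi4 KO (0.84, adjusted p = 0.0123 by edgeR), a call lost with DESeq2 and without the second WT unstimulated library (from 0.42 to 1.499 over all alternatives).

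**Figure D5:**
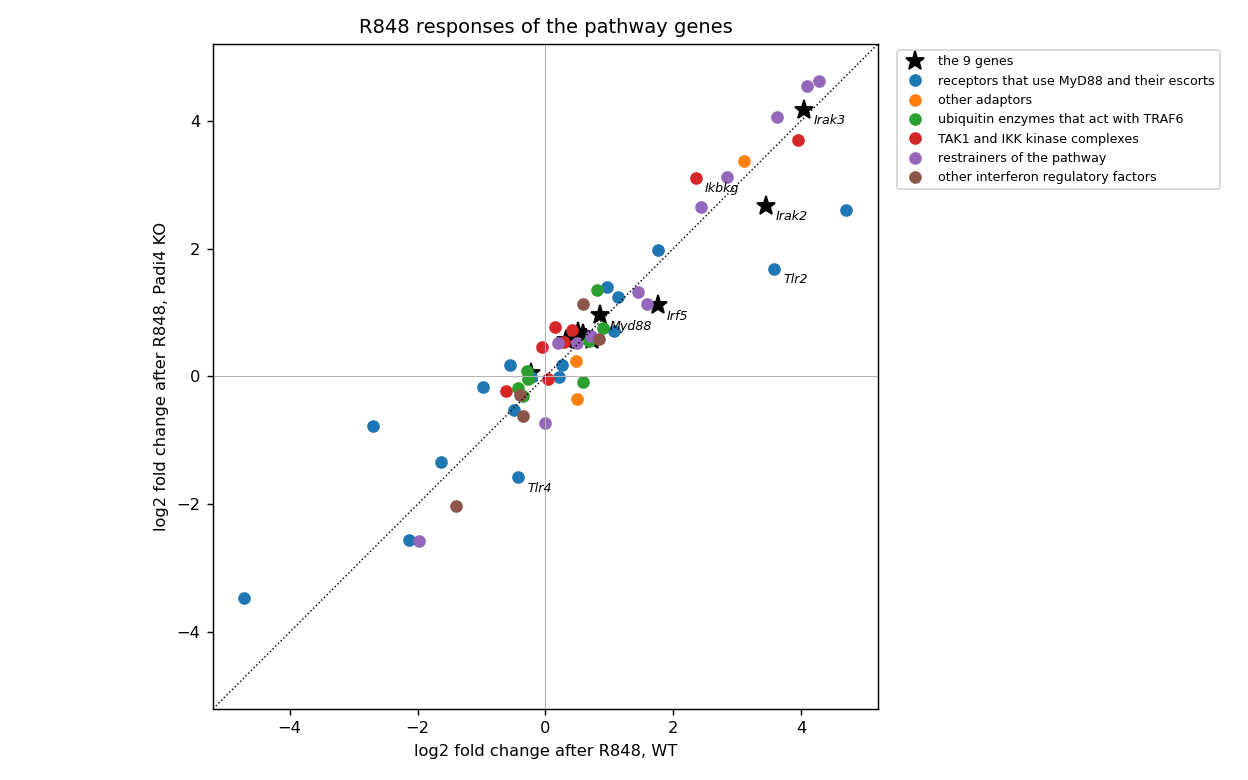
Log2 fold change after R848 in WT (horizontal axis) and in Padi4 KO (vertical axis) of the 9 genes (stars) and the 53 other pathway genes tested (circles coloured by role), with the line of equal response dotted. Irak2 and Tlr2 lie below the line, and Irak3 lies close to it near the upper end.

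Across the 8 libraries, the 5 genes whose log2 CPM followed Irak2 most closely among 6911 were Chka (Pearson r = 0.997), Stk40 (0.996), Slc15a3 (0.995), Cflar (0.994) and Myo1c (0.994). These values are a description over 8 libraries that share a treatment, and many genes that R848 raised would give a high r. The genes were picked for their r in these same libraries, so some likeness to Irak2 was fixed in advance. Chka had group means of 13.1 and 93.0 CPM in WT, unstimulated and with R848, and 14.1 and 56.9 in Padi4 KO. Its log2 difference of response (Padi4 KO minus WT) was -0.77, beside -0.79 for Irak2. The difference was smaller in size for Stk40 (-0.38), Slc15a3 (-0.27), Cflar (-0.28) and Myo1c (-0.23), despite their high r. Among the 9 genes, the r with Irak2 was 0.979 for Irak3, 0.969 for Irf5 and 0.966 for Myd88, and that of Irak1 was -0.36.

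In the genome (GRCm38, GENCODE M21 annotation) all 9 are protein-coding genes. On the plus strand lie Irak2 (chr6:113638467-113695026), Irf5 (chr6:29526625-29541871), Irak4 (chr15:94543643-94581815) and Traf6 (chr2:101678429-101701669), and on the minus strand Myd88 (chr9:119335934-119341411), Tirap (chr9:35184551-35200291), Irak3 (chr10:120141648-120202130), Tollip (chr7:141874813-141918507) and Irak1 (chrX:74013914-74023918). The kit used does not mark the strand of the RNA, so reads in exons that overlap a gene on the other strand cannot be told apart. Such overlaps are 196 bases for Irak2 with Gm43963, 192 for Irak3 with Tmbim4, 251 for Irf5 with Tnpo3, 223 for Myd88 with Acaa1a, 395 for Irak4 with Twf1 and 446 for Tirap with Gm39318. Smaller ones are 39 bases for Tirap with Srpr and 28 for Irak3 with Gm47009.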

How the data were processed

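Total RNA of magnetically isolated bone marrow neutrophils was sequenced as paired ends in 8 libraries of 4 groups. The authors checked reads with FastQC (0.11.7), trimmed adaptors with cutadapt (1.16), aligned to mm10 with STAR (2.5.3a) and counted reads per gene with HTSeq (0.6.1p1), and deposited these raw counts, which are used here as deposited. Which gene annotation was used, and whether reads were counted by strand, is not given in the sources used here. The 5 HTSeq summary lines were left out, and the rest held between 87.0% and 89.5% of all lines' counts.

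Genes with at least 1 count in at least 2 of 8 libraries (12254) were tested with edgeR 4.0.16 (robust quasi-likelihood fit, TMM factors) in R 4.3.3, with 1 mean for each of the 4 groups, 4 residual degrees of freedom and Benjamini-Hochberg adjustment over all genes. The threshold was an FDR of 0.1. The study's methods, which name DESeq2, required this FDR and a 2-fold change together. The called differences between genotypes of Irak2, Tirap and Irak3, and the called difference of response of Irak2, were below 2-fold. The biological coefficient of variation was 4.68%. DESeq2 1.42.0 was an alternative, as were other factors, filters, thinned counts, separate models, a replicate block and leaving out each library. The scripts were tested on simulated data. The 9 genes are all named, and of the 55 pathway genes up to 3 a comparison and direction with the smallest p, mean count of at least 10 and FDR below 0.1, and Tlr7. The members and lists were chosen with earlier results of these data known. The replicate numbers do not pair the samples, since the correlation of same-numbered deviations ran from -0.02 to 0.02. Counting intervals and floors cover counting error only. Lengths and positions came from GENCODE M21 and promoters from RefSeq.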

Additional observations from a re-analysis of the deposited data

Results flagged for a closer look

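The R848 response of Irak2 differed between the genotypes in the test of the difference itself, with a log2 value of -0.79 for Padi4 KO minus WT (SE 0.27, adjusted p = 0.0731 by edgeR). Irak2 counts were 25 and 30 in WT unstimulated, 265 and 256 in WT with R848, 43 and 52 in Padi4 KO unstimulated, and 292 and 301 in Padi4 KO with R848, in libraries whose totals were 640958 and 562446, 610117 and 668857, 716440 and 1102363, and 1177972 and 1134163. The call was lost with DESeq2 (adjusted p = 0.102), with thinned counts (0.142), at an FDR of 0.05, and by edgeR without the first WT (0.481) or the first Padi4 KO (0.341) unstimulated library, and it held in 11 of 15 alternatives at an FDR of 0.1. The cause was not tested.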

How the results depend on the processing

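Over the values of the 9 genes in the 5 comparisons, 602 kept direction and side of the threshold, 31 lost a call, 17 gained one and 61 changed sign; of the sign changes, only Irak3 with R848 under library size alone was a called value. With library size alone the counts were 1 lower in WT after R848, 4 higher in Padi4 KO, and, unstimulated, 1 higher and 0 lower in Padi4 KO. The number with a lower response in Padi4 KO was 0 with DESeq2 and with thinned counts, 2 with factors by relative log expression (RLE), 0 at an FDR of 0.05 and 0 to 2 when a library was left out. Unstimulated, lower genes numbered 0 with DESeq2, RLE, separate models, an FDR of 0.05 and every left-out library (0 to 0), and higher genes 1 with separate models and 0 to 1 when a library was left out. The cause of these changes was not tested. Library size alone moved the all-gene median (mean count of at least 10) from -0.07 to -0.38 for the WT response, from 0.08 to -0.30 for the Padi4 KO response, from -0.16 to 0.12 for Padi4 KO against WT unstimulated and from -0.0019 to 0.21 with R848. The all-gene median of the difference was 0.18 with TMM, 0.024 with RLE and -0.072 to -0.060 when a library with R848 was left out, and 73.3% of its calls were higher with TMM, 40.7% with RLE and 28.0% with DESeq2 (423 higher and 154 lower with TMM, 160 and 233 with RLE, 35 and 90 with DESeq2).

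Values that changed sign were, for the R848 response of Irak1 in Padi4 KO, -0.025 with DESeq2, -0.031 with RLE, -0.32 with library size alone and -0.0076 with filterByExpr (-0.16 to 0.11 leaving out a library). For the difference of response they were Myd88 (-0.061 DESeq2, -0.059 RLE, -0.041 thinned, -0.20 to 0.17 leaving out), Irak3 (-0.029, -0.031, -0.0042, -0.15 to 0.22) and Tollip (-0.10, -0.089, -0.094, -0.0064 library size alone, -0.32 to 0.21), and leaving out libraries Irak1 (-0.058 to 0.33), Irak4 (-0.17 to 0.30) and Traf6 (-0.24 to 0.26). Unstimulated, library size alone gave Myd88 0.10, Irak1 0.023, Irak2 0.19 (0.052 with separate models, -0.30 to 0.12 leaving out) and Tollip 0.026. With R848 it gave Myd88 0.13, Irak3 0.026, Irak4 0.11, Traf6 0.10 and Tollip 0.020, and Irak1 was -0.086 with DESeq2 and -0.088 with RLE (-0.19 to 0.016 leaving out).

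With the replicate number as a block the difference of Irak2 was -0.80 and 1 gene was called; the block changed no call among the 9 genes. Among the named pathway genes it ended the call of Tlr9 in Padi4 KO against WT unstimulated, as did DESeq2, no filter beyond 1 count and thinned counts. Library size alone lowered some calls that held by over 1.5 times, namely Myd88 (0.55 in WT and 0.58 in Padi4 KO), Tirap (0.42 in WT, and -0.35 between genotypes with R848) and Irf5 (0.74 in Padi4 KO). At 26 to 63 counts a library the standard errors of the Traf6 responses were 0.27 in WT and 0.21 in Padi4 KO.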
